A study of Mus musculus with 8 samples.

Results

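The genes described here are 53 interferon response genes, meaning genes that type I or type II interferon is known to induce. They were taken by symbol from the 22609 gene rows measured, by a rule that names the genes and no measured value. RNA-seq was done on intrahepatic CD8 T cells of male C57BL/6J mice aged 6 weeks that were given αCD137, an agonist antibody to a T cell costimulatory receptor. Doses fell on day 0, 3 and 6, and day 8 was the day of liver collection. Cells in the gate were live, CD45+, MHCII-, NK1.1-, TCRβ+, CD8α+ and CD4-, and KLRG1+CD127- cells among them, a profile typical of effectors, were sorted by CD11c. This gave 4 libraries of CD11c+KLRG1+CD127- cells and 4 libraries of CD11c-KLRG1+CD127- cells. CD11c is an integrin chain best known from dendritic cells that some activated T cells also carry. Mice of both subsets had received the antibody, and no untreated mice are part of the comparison, which sets 2 sorted subsets of treated livers side by side.

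Interferons tell cells that a virus or another intracellular pathogen is near. Type I interferon binds IFNAR1 and IFNAR2 and works through the kinases JAK1 and TYK2 and a complex that includes STAT2 and IRF9 and binds the interferon-stimulated response element of antiviral genes such as the Ifit, Oas and Mx families. Type II interferon, or interferon gamma, is secreted by CD8 T cells themselves. It binds IFNGR1 and IFNGR2 and acts in part through the induced factor IRF1, whose classic targets include the Gbp and Irgm families of GTPases. The programmes overlap widely, so a gene of either family can answer to both interferons.

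Gene reads per library ranged from 5090345 to 7093163, and 10482 to 12581 genes had at least 1 read. Levels are given as CPM, gene reads scaled to the same total in each library with TMM factors. Itgax, which encodes CD11c, had 357, 212, 198 and 204 CPM in the CD11c+ libraries, against 9.66, 4.76, 7.90 and 17.97 CPM in the CD11c- libraries, so the transcript followed the sort in every library (log2 fold change 4.60, SE 0.36, adjusted p = 0.000136, edgeR's quasi-likelihood test with Benjamini-Hochberg adjustment). All 7 T cell markers found in the files were detected, with a summed level of 7692 to 8971 CPM in CD11c+ and 8003 to 8845 CPM in CD11c- libraries. Markers of other cells were counted in the same way. B cell markers summed to 9.58 to 13.6 CPM in CD11c+ and 6.58 to 14.8 CPM in CD11c- libraries. In the same order, hepatocyte markers gave 0.196 to 21.7 and 1.86 to 25.7 CPM, and endothelial markers 18.0 to 28.1 and 25.1 to 38.2 CPM. NK cell markers gave 192 to 310 and 176 to 210 CPM, with Eomes the largest part (means 183 and 177 CPM). Tyrobp and Fcer1g among them had means of 24.0 and 13.7 CPM in CD11c+ and 11.4 and 7.23 CPM in CD11c- libraries. The 8 dendritic cell markers summed to 21.3 to 29.0 CPM in CD11c+ and 11.1 to 52.7 CPM in CD11c- libraries once Itgax was left out. Ccr7 was the largest part of that sum, at 16.2 to 19.6 CPM in CD11c+ and 11.1 to 50.2 CPM in CD11c- libraries. The remaining dendritic markers had at most 4.99 CPM in any library. Their means were higher in CD11c+ for Flt3, Xcr1, Clec9a, Cd209a and Ccl22 and in CD11c- for Zbtb46. Flt3, Cd209a and Ccl22 had reads in CD11c+ libraries alone. Neutrophil markers, 5 of 6 with reads and Mpo at 0 in all libraries, summed to 2.27 to 288 CPM in CD11c+ and 7.56 to 116 CPM in CD11c- libraries, with the highest sum in CD11c+ replicate 3. Of the 13 monocyte and Kupffer cell markers, Ly6c2 and Ccr2, which T cells also express, were left out. The others summed to 93.9 to 367 CPM in CD11c+ and 94.7 to 201 CPM in CD11c- libraries. Clec4f, Timd4 and Marco were at 0 in all libraries but CD11c+ replicate 4, and Vsig4 in all but CD11c+ replicates 2 and 4. C1qa, C1qb and C1qc had reads in CD11c- replicates 1 and 4 as well as in CD11c+ libraries, at most 4.40 CPM. No label ties a library to a mouse of its own, and the spread that the p-values weigh may therefore be technical.

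No interferon response gene passed the test between the subsets. Of the 53 genes, 51 had enough reads to be tested, and Mx2 and Ifi44 did not. With edgeR's quasi-likelihood test over 10073 genes, 0 of the 51 were past an adjusted p of 0.05, as also with DESeq2 and with limma voom, and the adjusted p ranged from 0.991 to 0.999. The same test called 5 of all 10073 genes, or 0.0496% (0.0298% higher and 0.0199% lower), so few calls were made anywhere. At an unadjusted p under 0.05 there were 2 members, Irf7 and Isg20, both lower in CD11c+ cells. That is 3.92% of the 51, near the 4.7% of all tested genes, of which 2.43% were higher and 2.26% lower. DESeq2 gave 3 members at that unadjusted level, all lower, beside 5.45% of all tested genes. With limma voom there were 5, of which 2 were higher and 3 lower, beside 5.32%.

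The fold changes were small for most members. Log2 fold changes, CD11c+ over CD11c-, ran from -1.60 to 1.14 with a median of -0.080, beside 0.011 for all tested genes. Without CD11c- replicate 1 the median over the members was -0.044. They were positive for 20 members and negative for 31, so 60.8% were negative, beside 48.3% of all tested genes. The median absolute log2 fold change was 0.24, beside 0.19 for all tested genes. For 38 of the 51 the whole 95% interval of the log2 fold change lay between -1 and 1, which leaves a change of 2-fold or more outside the interval for these genes; over all tested genes that held for 6124 of 10073. The 29 members with a mean of at least 50 CPM had log2 fold changes from -0.56 to 0.30, and the 3 members beyond 1 in size, Oas2, Parp12 and Ifitm3, were scarce transcripts with wide intervals. The libraries of the subsets failed to overlap for 1 of 51 members (1.96%), Ifi35, beside 3.44% of all tested genes (1.6% with CD11c+ higher, 1.85% with CD11c- higher). In bulk libraries, fewer cells that express a gene and less RNA per cell cannot be told apart.

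**Figure D1:**
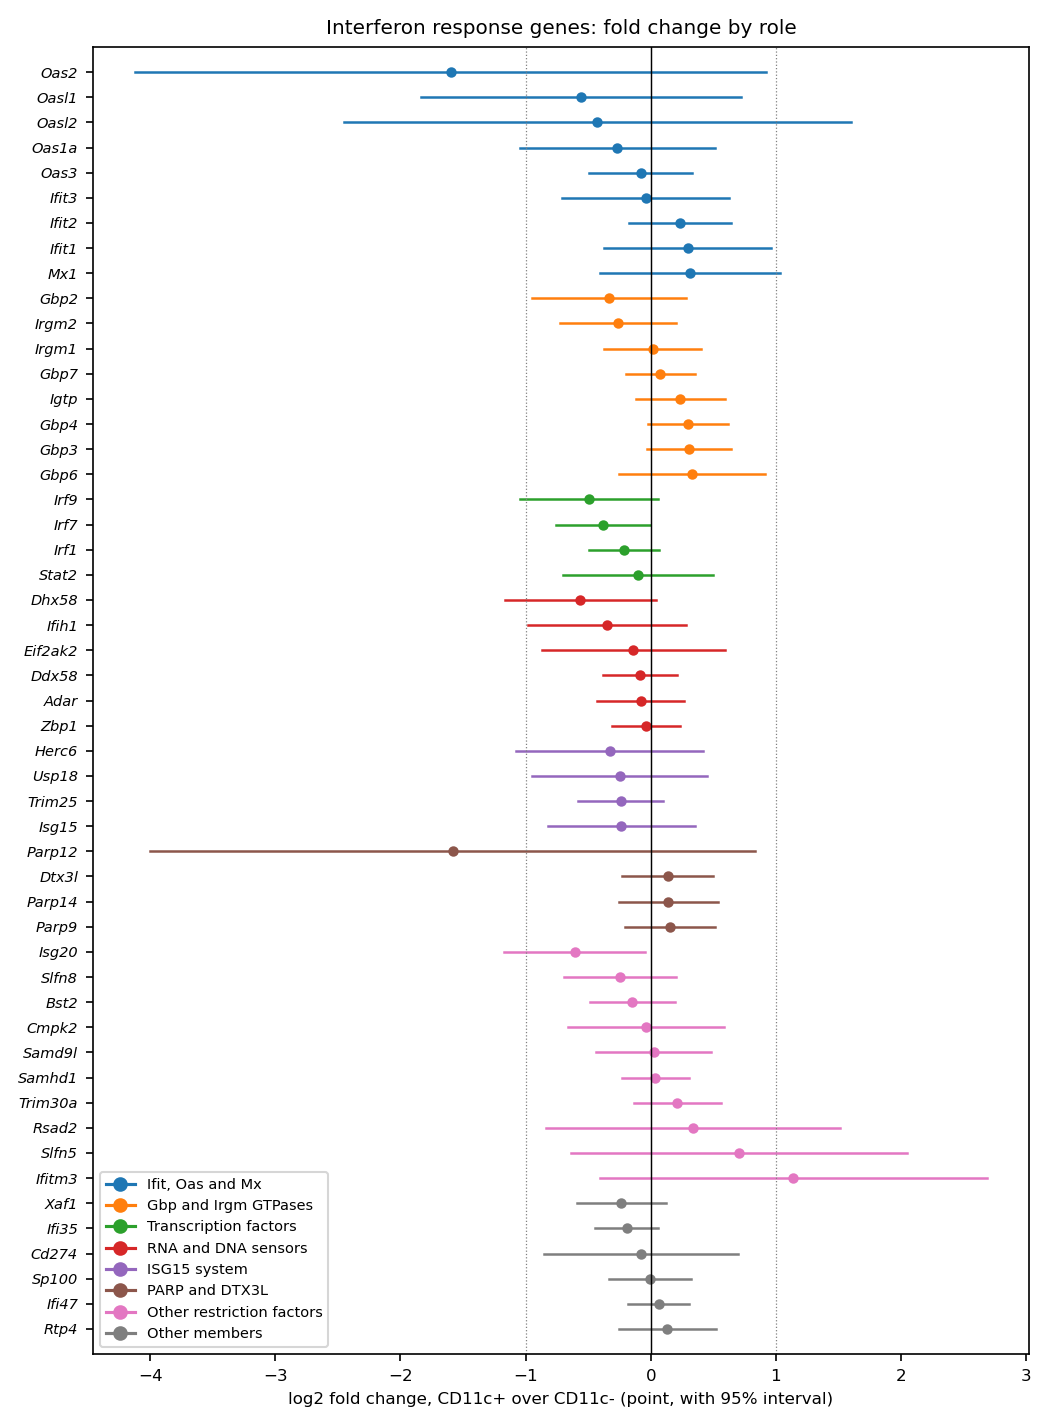
Log2 fold change of each of the 51 tested interferon response genes, CD11c+ over CD11c-, with its 95% interval, in 8 role groups shown by colour; dotted lines mark -1 and 1. Most points lie near 0, and the wide intervals belong to scarce genes such as Oas2 (-1.60), Parp12 (-1.58) and Ifitm3 (1.14).

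**Figure D2:**
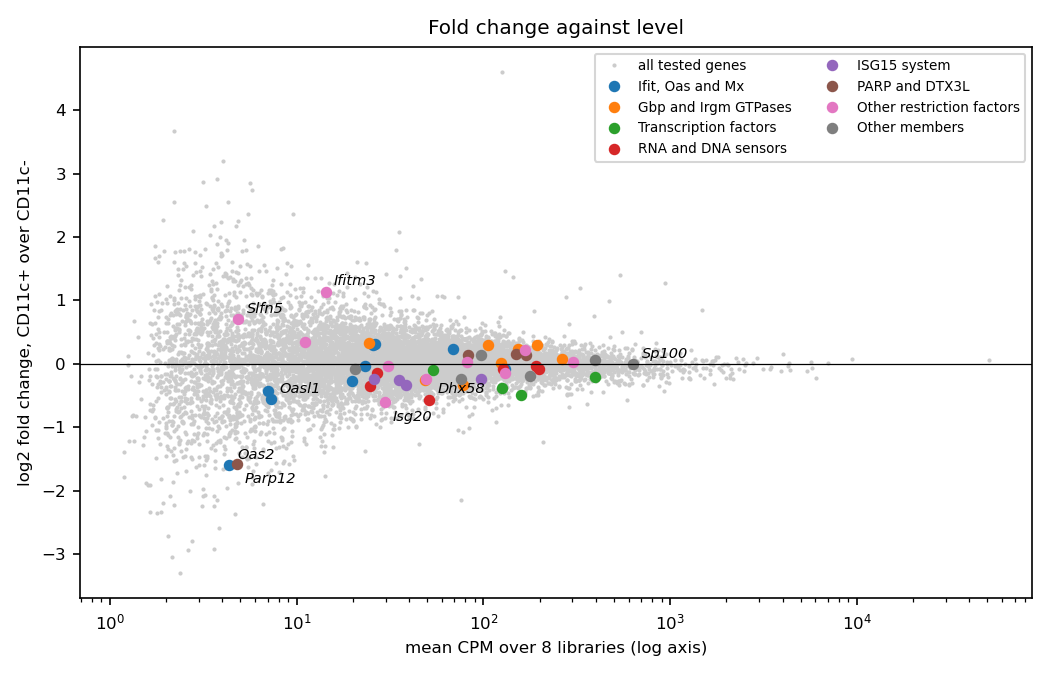
Log2 fold change (CD11c+ over CD11c-) against mean CPM over the 8 libraries on a log axis, with all 10073 tested genes in grey and the 51 tested interferon response genes coloured by role. The abundant members lie close to 0, and the members beyond 1 in size have a mean of 14.3 CPM or less.

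To compare genes with each other, levels were divided by exon length (CPM per kb). On this scale Ifi47, an immunity-related GTPase, led the members at 209.9 CPM per kb over the 8 libraries. Next came Sp100 (nuclear body protein, 167), Bst2 (tetherin, 164), Ifi35 (130.0), Irf1 (118) and Zbp1 (87.9 CPM per kb). The Gbp and Irgm GTPases lay between 9.37 CPM per kb for Gbp6 and 76.2 for Igtp, with a median of 38.6. The Ifit, Oas and Mx genes lay lower, from 0.269 CPM per kb for Mx2 to 27.8 for Oas3, with a median of 8.72. The factors had a median of 52.1 CPM per kb, the nucleic acid sensors 27.1, the ISG15 system 18.5, and the PARP group 20.3. Both subsets thus carried transcripts of nearly every member, with the GTPases and factors above the classic antiviral families.

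The transcription factors of the response all had lower means in CD11c+ cells. Irf7, an amplifier of type I interferon transcription, had 143, 108, 97.5 and 90.1 CPM in the CD11c+ libraries, against 166, 118, 136 and 150.1 CPM in the CD11c- libraries. It was low in CD11c+ replicates 2 to 4 and the subsets overlapped through CD11c+ replicate 1. Irf7 averaged 109.6 ± 23.4 CPM in CD11c+ and 143 ± 20.1 CPM in CD11c- libraries (SD, n = 4 each), a log2 fold change of -0.38 (SE 0.17, 95% interval -0.75 to -0.0078) with an unadjusted p of 0.0461 and an adjusted p of 0.991 by edgeR's quasi-likelihood test. Irf1, the factor most tied to interferon gamma, had 419, 359, 353 and 332 CPM in the CD11c+ libraries, against 518, 362, 403 and 411 CPM in the CD11c- libraries. Its highest library was CD11c- replicate 1 and the ranges overlapped, with a log2 fold change of -0.21 (SE 0.13, 95% interval -0.49 to 0.066). Irf9, the DNA-binding part of the complex with STAT2, had 162, 85.0, 152 and 132 CPM in the CD11c+ libraries, against 297, 142, 148 and 159 CPM in the CD11c- libraries. CD11c- replicate 1 stood far above the other 7 libraries, and the log2 fold change was -0.49 (SE 0.25, 95% interval -1.04 to 0.057). Without that library the log2 fold change of Irf9 was -0.19. Stat2, its partner in the type I response, spanned 37.2 to 80.9 CPM in CD11c+ and 40.5 to 76.3 CPM in CD11c- libraries, with a log2 fold change of -0.10 (SE 0.28). Of the 4 factors, 1 was at an unadjusted p under 0.05 and their median log2 fold change was -0.30.

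The promoters of Irf7 and of Isg20, an RNA exonuclease, are shown because these are the 2 members at an unadjusted p under 0.05. Both are the 250 bases before the gene start in RefSeq (GRCm38.p6), 5′ to 3′ on the gene's strand, for Irf7 chr7:141266425-141266674 on the minus strand and for Isg20 the start farthest upstream, chr7:78913174-78913423 on the plus strand. They were searched on both strands for the core of the interferon-stimulated response element, spelled GAAA, NN and GAAA in a row, and for the STAT site TTCNNNGAA. Capitals mark a match.
Irf7: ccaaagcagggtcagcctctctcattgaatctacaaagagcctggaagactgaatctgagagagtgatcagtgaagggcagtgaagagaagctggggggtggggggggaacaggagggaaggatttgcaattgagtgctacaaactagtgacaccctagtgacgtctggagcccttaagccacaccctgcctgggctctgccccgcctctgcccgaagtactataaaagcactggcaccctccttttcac
Isg20: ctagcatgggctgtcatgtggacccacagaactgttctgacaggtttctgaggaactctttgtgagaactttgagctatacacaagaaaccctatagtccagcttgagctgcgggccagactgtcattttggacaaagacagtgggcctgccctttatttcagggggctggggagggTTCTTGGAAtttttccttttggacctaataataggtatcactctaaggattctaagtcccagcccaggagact
The Irf7 window held neither motif, and the Isg20 window held 1 STAT site, 73 bases before the start, while the windows of its 2 other starts held none. These letters say nothing of binding in these cells.

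Isg20 had 30.9, 17.1, 21.9 and 23.9 CPM in the CD11c+ libraries, against 44.6, 35.9, 26.5 and 35.9 CPM in the CD11c- libraries. CD11c+ replicates 2 to 4 were the lowest of the 8 libraries and only CD11c+ replicate 1 reached into the CD11c- range. The mean was 23.4 ± 5.72 CPM in CD11c+ and 35.7 ± 7.37 CPM in CD11c- libraries (SD, n = 4 each), 1.52-fold higher in CD11c- cells, with a log2 fold change of -0.61 (SE 0.26, 95% interval -1.17 to -0.043), an unadjusted p of 0.0371 and an adjusted p of 0.991 by edgeR's quasi-likelihood test. Of the 8 fits that leave out 1 library, both genes were at an unadjusted p under 0.05 without CD11c+ replicate 1, Irf7 alone without CD11c- replicate 2, Isg20 alone without CD11c- replicate 3, and neither in the other 5 (without CD11c+ replicate 2, 3 or 4, or CD11c- replicate 1 or 4).

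The 6 genes that sense or edit foreign or unusual nucleic acid all had a negative log2 fold change (median -0.11), and none was at an unadjusted p under 0.05. Zbp1, which binds Z-form nucleic acid, had 197, 170.4, 202 and 181 CPM in the CD11c+ libraries, against 179, 183, 183 and 227 CPM in the CD11c- libraries, and its log2 fold change was -0.039 (SE 0.13, 95% interval -0.31 to 0.24). Adar, which edits double-stranded RNA, had 147, 255, 167 and 205 CPM in the CD11c+ libraries, against 213, 200.01, 205 and 199.8 CPM in the CD11c- libraries, and its log2 fold change was -0.081 (SE 0.16, 95% interval -0.43 to 0.27). The CD11c+ libraries of Adar were more spread than the CD11c- ones and enclosed them. Ddx58, which encodes the RNA sensor RIG-I, had 146, 121, 111 and 117 CPM in the CD11c+ libraries, against 128, 133, 144 and 120.2 CPM in the CD11c- libraries, and its log2 fold change was -0.086 (SE 0.14, 95% interval -0.38 to 0.21). For these 3 sensors the subsets overlapped and the 95% intervals lay between -0.43 and 0.27 on the log2 scale. The scarcer RNA helicase genes Dhx58 (LGP2) and Ifih1 (MDA5) had log2 fold changes of -0.56 (SE 0.28) and -0.35 (SE 0.29), and Eif2ak2, the kinase PKR, had -0.14 (SE 0.34). The mean log2 CPM of the 6 sensors was 5.94 to 6.16 in CD11c+ libraries and 6.20 to 6.42 in CD11c- libraries, which did not overlap, with a difference of means of -0.25. In the other 7 role groups this mean overlapped between the subsets. Whether the sensor mean also separates under other filters or with a library left out was not tested.

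ISG15 is a ubiquitin-like tag, USP18 takes it off and restrains the receptor, HERC6 is its main ligase in mice and TRIM25 is a ligase that acts with RIG-I. All 4 genes had negative log2 fold changes, from -0.33 to -0.24, and none passed the test. Trim25 had 105, 80.3, 82.5 and 89.5 CPM in the CD11c+ libraries, against 119.8, 88.1, 111 and 103 CPM in the CD11c- libraries. Usp18 had 15.3, 38.6, 35.1 and 40.7 CPM in the CD11c+ libraries, against 26.4, 36.8, 35.6 and 55.5 CPM in the CD11c- libraries. Herc6 had 16.8, 20.6, 45.3 and 53.2 CPM in the CD11c+ libraries, against 32.3, 48.7, 44.8 and 44.9 CPM in the CD11c- libraries. Each gene overlapped between the subsets, and for Usp18 and Herc6 the lowest library was CD11c+ replicate 1. The log2 fold changes were -0.24 (SE 0.16) for Trim25, -0.25 (SE 0.32) for Usp18, -0.33 (SE 0.34) for Herc6 and -0.24 (SE 0.27) for Isg15 itself, whose range was 16.2 to 30.9 CPM in CD11c+ and 24.2 to 34.5 CPM in CD11c- libraries.

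The Ifit, Oas and Mx genes are the effectors most tied to type I interferon. IFIT proteins bind viral RNA, OAS enzymes make the oligoadenylates that switch on RNase L, and MX proteins are GTPases that trap viral particles. Of the 9 tested members, 3 were positive and 6 negative in log2 fold change (median -0.079), with none at an unadjusted p under 0.05. Their median was -0.19 without CD11c+ replicate 1, -0.17 without CD11c- replicate 2 and -0.22 without CD11c- replicate 3. Oas3 had 157, 139, 83.4 and 131 CPM in the CD11c+ libraries, against 143, 110.2, 153 and 132 CPM in the CD11c- libraries. Its lowest library was CD11c+ replicate 3, the ranges overlapped and the log2 fold change was -0.079 (SE 0.19, 95% interval -0.49 to 0.33). Ifit2 had 79.4, 73.0, 73.9 and 72.0 CPM in the CD11c+ libraries, against 52.2, 68.4, 81.6 and 51.1 CPM in the CD11c- libraries. The CD11c+ libraries of Ifit2 lay within the CD11c- range and close together, and the log2 fold change was 0.24 (SE 0.19, 95% interval -0.17 to 0.64). Mx1 had 33.2, 44.7, 13.5 and 25.3 CPM in the CD11c+ libraries, against 20.4, 26.8, 25.8 and 21.1 CPM in the CD11c- libraries. CD11c+ replicates held both the highest and the lowest Mx1 value, with a log2 fold change of 0.31 (SE 0.33, 95% interval -0.41 to 1.03). Ifit1, Ifit3 and Oas1a, at 9.60 to 46.5 CPM in CD11c+ and 13.9 to 33.4 CPM in CD11c- libraries, had log2 fold changes of 0.30, -0.040 and -0.27.

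The other Oas genes and Mx2 were scarce. Oas2 had 0.391, 0, 7.13 and 1.09 CPM in the CD11c+ libraries, against 16.3, 0.980, 5.83 and 3.17 CPM in the CD11c- libraries. CD11c- replicate 1 and CD11c+ replicate 3 were high, the subsets overlapped, and the log2 fold change of -1.60 (SE 1.16, 95% interval -4.12 to 0.92) had an interval too wide to place it. At 0 reads in CD11c+ replicate 2, up to 0.523 CPM is allowed (3 reads, counting error only). Oasl1 and Oasl2, relatives of the Oas enzymes, had at most 12.7 CPM in any library and log2 fold changes of -0.56 (SE 0.59) and -0.43 (SE 0.94). Mx2 had at most 1.40 CPM in any library and was not tested. Reads placed at more than 1 site were not counted, so genes with close copies such as the Ifit, Oas, Gbp, Irgm and Slfn families carry uncertain levels.

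The Gbp and Irgm genes encode guanylate-binding proteins and immunity-related GTPases that serve in defence against pathogens in vacuoles, and are the members most tied to interferon gamma. Of 8 tested, 6 were positive and 2 negative in log2 fold change (median 0.16, range -0.33 to 0.33), with none at an unadjusted p under 0.05. Without CD11c+ replicate 1 their median was 0.042. Gbp7 had 306, 233, 273 and 272 CPM in the CD11c+ libraries, against 296, 241, 267 and 224 CPM in the CD11c- libraries. Gbp4 had 258, 230.3, 176 and 189 CPM in the CD11c+ libraries, against 197, 156, 166 and 176 CPM in the CD11c- libraries. Igtp had 220.3, 135, 169 and 143 CPM in the CD11c+ libraries, against 162, 135, 133 and 137 CPM in the CD11c- libraries. All 3 overlapped between the subsets, and CD11c+ replicate 1 was the highest library of each. The log2 fold changes were 0.077 (SE 0.13, 95% interval -0.20 to 0.35) for Gbp7, 0.30 (SE 0.15, 95% interval -0.021 to 0.61) for Gbp4 and 0.24 (SE 0.16, 95% interval -0.12 to 0.59) for Igtp. Gbp3 and Gbp6 had log2 fold changes of 0.30 (SE 0.15) and 0.33 (SE 0.27), Irgm1 0.014 (SE 0.18), and Gbp2 and Irgm2 -0.33 (SE 0.28) and -0.26 (SE 0.21). For all 8 genes the 95% interval lay between -1 and 1.

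**Figure D3:**
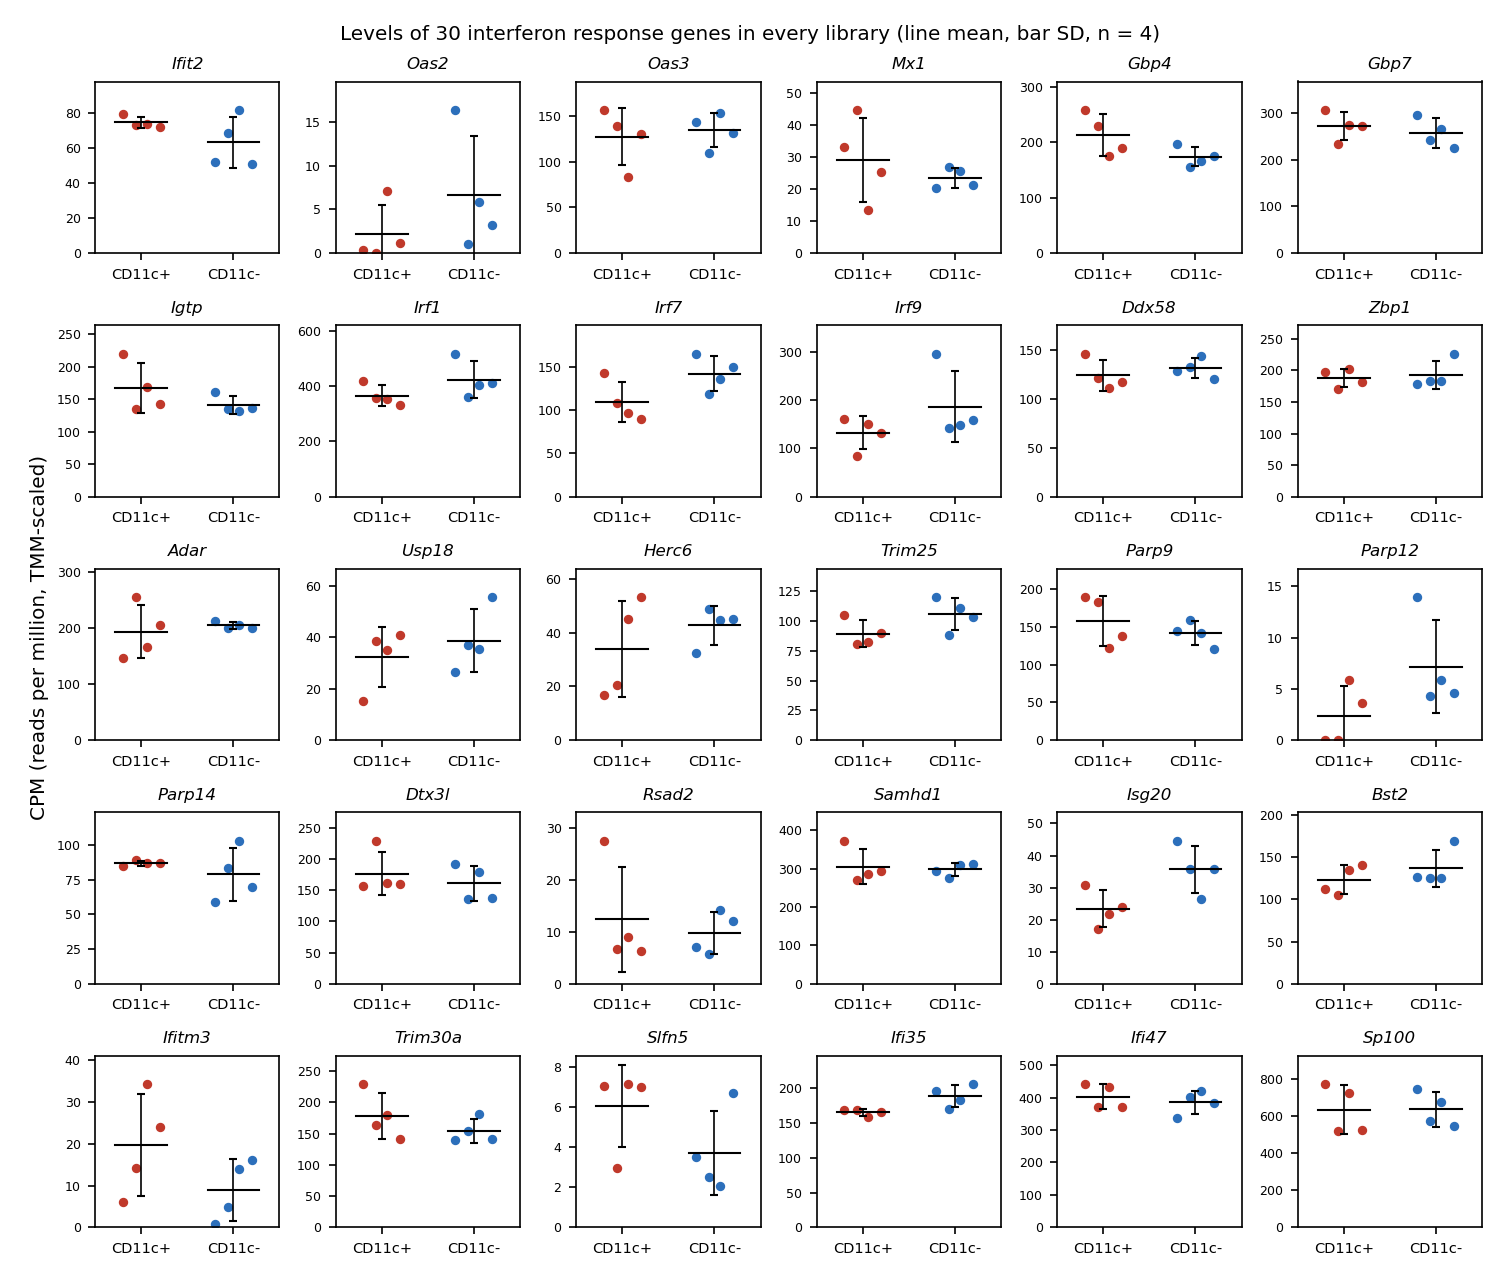
CPM of 30 interferon response genes in each library, CD11c+ on the left and CD11c- on the right of every panel, with the mean as a line and the SD as a bar (n = 4 each); each axis starts at 0. The subsets overlap in all panels except that of Ifi35, where the CD11c- libraries lie at 170.2 to 205 CPM, above 158 to 169 CPM in CD11c+ libraries.

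Response elements stood in the promoters of both families. RefSeq promoters (GRCm38.p6, 250 bases before to 50 after the start) were found for 42 of the 53 members. The response element core, searched on both strands with overlapping matches joined, was in 21 of these 42 genes (50.0%), beside 3.99% of all 27025 genes with a promoter of that length. It was in 4 of 7 Ifit, Oas and Mx genes and in 6 of 6 Gbp and Irgm genes. The STAT site TTCNNNGAA was in 13 of the 42 (31.0%), beside 9.55% of all genes. The cores are shown, with 8 bases on either side and read on the strand that spells GAAA, because they are what the families share whatever their fold change. The Oas1a stretch has fewer bases after its match, as it ends at the gene start. Coordinates are of GRCm38.p6, capitals mark the match, and 10-base matches that overlap are joined.
Ifit1 (chr19:34640796-34640821): agcagtgaGAAACTGAAActgagact
Ifit1 (chr19:34640777-34640802): tgagactgGAAAGTGAAActgaagcc
Ifit3 (chr19:34583399-34583424): ggaaagtaGAAACTGAAAcagactta
Ifit3 (chr19:34583365-34583390): cagaagagGAAAGTGAAActtaccac
Oas1a (chr5:120907526-120907553): cttctcggGAAATGGAAACTGAAAatct
Oas3 (chr5:120777717-120777742): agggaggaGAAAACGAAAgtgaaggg
Gbp2 (chr3:142620596-142620621): aagacagtGAAAGTGAAActaaaaga
Gbp3 (chr3:142559991-142560022): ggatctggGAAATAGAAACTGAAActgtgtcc
Gbp7 (chr3:142530275-142530300): ggagaactGAAACTGAAActgcacac
Igtp (chr11:58199514-58199539): taggaactGAAACTGAAAgctgttcg
Irgm1 (chr11:48871427-48871458): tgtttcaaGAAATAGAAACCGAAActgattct
Irgm2 (chr11:58214905-58214930): caggaactGAAACTGAAAgctgttcg
Of these 12 stretches, 7 hold GAAA, CT and GAAA in a row, among them stretches of both families, and those of Igtp and Irgm2 match at 25 of 26 bases. The longer Gbp7 and Oas3 windows, 250 bases before the start (Gbp7 chr3:142530086-142530335, plus strand; Oas3 chr5:120777660-120777909, minus strand), show where the matches lie in the member of each family with the highest CPM, not divided by length; capitals mark a match on either strand, so a core on the opposite strand reads as its reverse complement.
Gbp7: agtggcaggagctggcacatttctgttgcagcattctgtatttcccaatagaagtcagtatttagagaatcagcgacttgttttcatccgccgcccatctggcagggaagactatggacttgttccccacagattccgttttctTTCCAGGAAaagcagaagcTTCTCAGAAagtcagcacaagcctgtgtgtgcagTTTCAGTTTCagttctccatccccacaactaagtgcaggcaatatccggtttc
Oas3: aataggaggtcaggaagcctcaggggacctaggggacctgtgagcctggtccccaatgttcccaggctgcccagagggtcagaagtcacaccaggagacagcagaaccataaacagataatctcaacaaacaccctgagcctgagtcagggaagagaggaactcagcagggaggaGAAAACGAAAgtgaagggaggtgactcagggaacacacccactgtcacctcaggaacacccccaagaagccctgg
Oas3, with 1 core, and Gbp7, with 1 core and 2 STAT sites, had log2 fold changes of -0.079 and 0.077 between the subsets.

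Scores put the 2 families side by side within a library. A score is the mean log2 CPM over a list's tested genes, and no p is given for it, since the genes were chosen with results of these data known. The score over the 51 members was 5.69, 5.57, 5.85 and 5.78 in the CD11c+ libraries, against 5.92, 5.74, 5.91 and 5.94 in the CD11c- libraries. CD11c- replicate 2 lay within the CD11c+ range, so the subsets overlapped, and the difference of means was -0.15. The Ifit, Oas and Mx score was 3.88, 3.71, 4.19 and 4.11 in the CD11c+ libraries, against 4.38, 4.11, 4.48 and 4.47 in the CD11c- libraries. Again CD11c- replicate 2 was the one within the CD11c+ range, and the difference of means was -0.39. The Gbp and Irgm score was 6.62, 6.56, 6.73 and 6.66 in the CD11c+ libraries, against 6.72, 6.54, 6.53 and 6.56 in the CD11c- libraries, a difference of 0.058 with overlap.

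Taken as a difference within each library, the Ifit, Oas and Mx score minus the Gbp and Irgm score was -2.74, -2.86, -2.53 and -2.55 in the CD11c+ libraries, against -2.34, -2.43, -2.05 and -2.08 in the CD11c- libraries. All 4 CD11c+ libraries were lower, at -2.67 ± 0.16 against -2.22 ± 0.19 in CD11c- libraries (SD, n = 4 each), a difference of -0.45. The separation did not hold under other filters. It remained with RLE in place of TMM factors and with each library left out, but these could hardly have undone it. A scaling factor largely cancels in a difference within a library, and leaving out a library mostly narrows the ranges. With only genes of at least 5 CPM in 4 libraries, the scarce Oas2 (log2 fold change -1.60, SE 1.16) drops out and leaves 8 Ifit, Oas and Mx members. The difference without Oas2 was -0.26. The ranges were -2.37 to -2.11 in CD11c+ and -2.29 to -1.75 in CD11c- libraries, which overlap. With no filter they overlapped as well. The score over all members differed by -0.077 with the filter of 5 CPM.

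**Figure D4:**
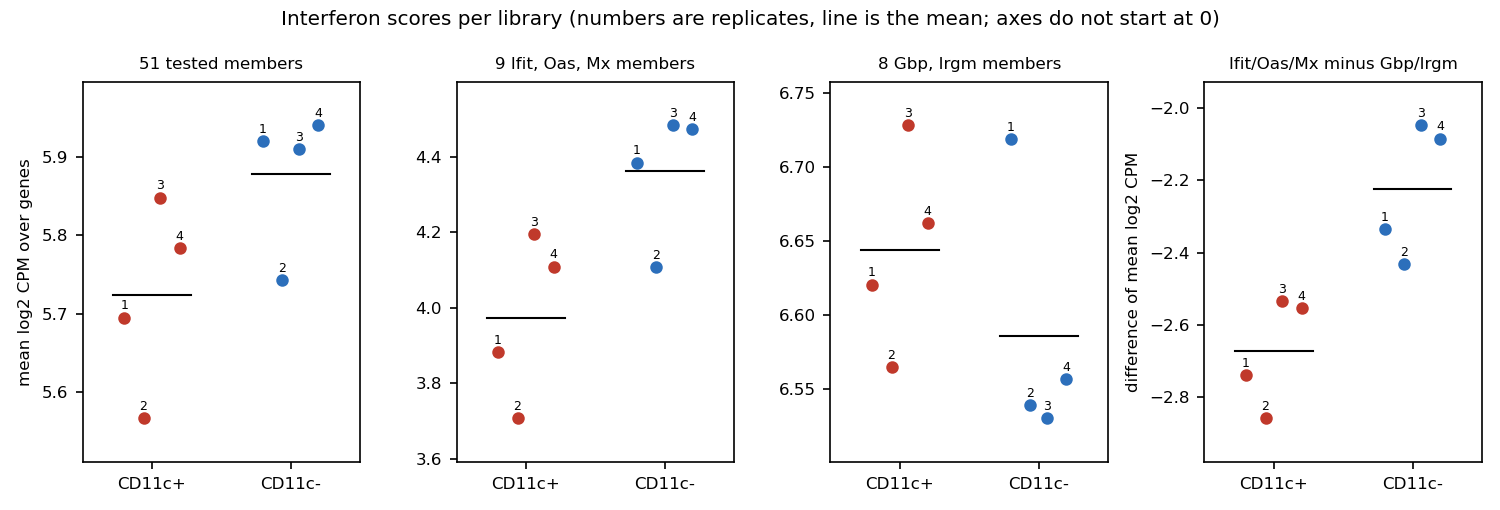
Mean log2 CPM per library over the 51 tested members, the 9 Ifit, Oas and Mx members and the 8 Gbp and Irgm members, and the difference of the last pair, with CD11c+ left of CD11c- and the line at the mean; axes do not start at 0. The subsets separate in the difference panel alone, at -2.67 in CD11c+ and -2.22 in CD11c- libraries.

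Libraries also differed in how many genes they detected, and the scarce members followed it in part. The CD11c+ libraries detected 10482, 10892, 11533 and 12581 genes, against 10783, 12322, 12120 and 12294 genes in the CD11c- libraries. Members with under 10 reads, of the 53, numbered 5, 5, 1 and 3 in the CD11c+ libraries, against 3, 3, 2 and 2 in the CD11c- libraries. CD11c+ replicates 1 and 2 had both the most scarce members and the lowest Ifit, Oas and Mx scores, while CD11c- replicate 1 combined 10783 genes with a score of 4.38. Oas2 and Oasl2 were among the scarce members of both CD11c+ libraries and also enter that score, so the count and the score are not independent. Without the 3 libraries with the fewest genes, an alternative chosen after seeing the data, the difference of the score over all members was -0.057 and that between the family scores -0.36, with 2 CD11c+ and 3 CD11c- libraries left. The difference between the family scores was then -2.56 to -2.54 in CD11c+ and -2.43 to -2.05 in CD11c- libraries. That these ranges do not overlap adds nothing, since leaving out libraries mostly narrows ranges that were already apart. The part of detection in the score differences was not tested further. The summed CPM of all members, which abundant genes set, was 5092 to 6033 in CD11c+ and 5138 to 6017 in CD11c- libraries.

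**Figure D5:**
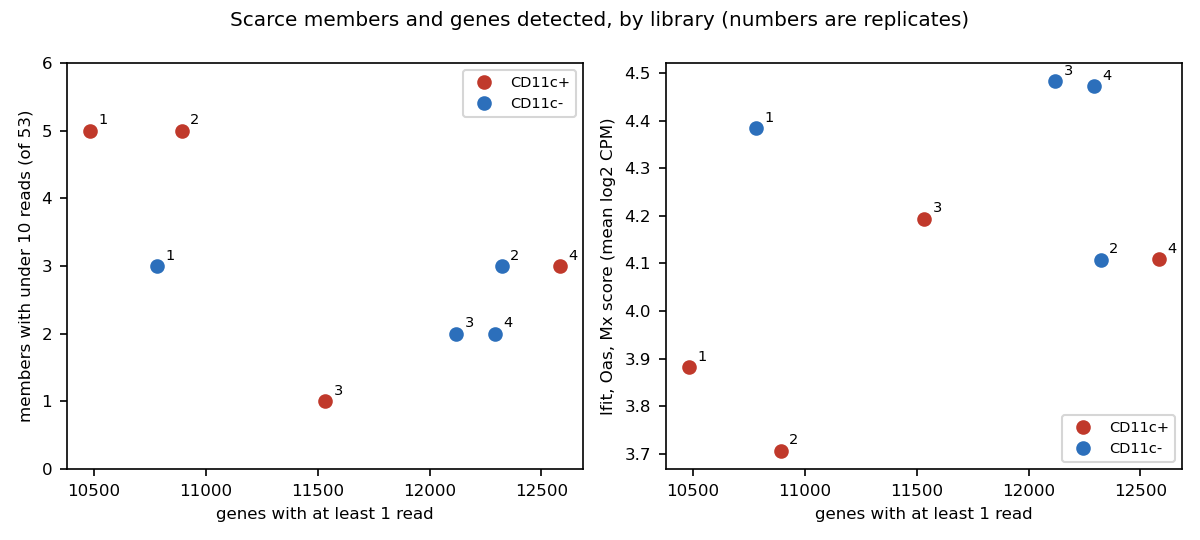
Number of the 53 members with under 10 reads (left) and the Ifit, Oas and Mx score (right) against the number of genes with at least 1 read, 1 point per library. CD11c+ replicates 1 and 2 have few genes, 5 scarce members each and the lowest scores, 3.88 and 3.71. Oas2 and Oasl2 enter both the count and the score.

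PARP9 and DTX3L form a pair of ADP-ribosylation and ubiquitin enzymes in interferon signalling, and PARP14 and PARP12 are relatives. Parp9 had 189, 183, 122 and 138 CPM in the CD11c+ libraries, against 145, 159.7, 142 and 121 CPM in the CD11c- libraries. Dtx3l had 156, 229, 161 and 160.1 CPM in the CD11c+ libraries, against 192, 136, 179 and 138 CPM in the CD11c- libraries. Parp14 had 84.5, 88.9, 87.1 and 86.7 CPM in the CD11c+ libraries, against 58.7, 83.5, 103 and 69.9 CPM in the CD11c- libraries. All overlapped, and the CD11c+ libraries of Parp14 were nearly alike. The log2 fold changes were 0.15 (SE 0.17, 95% interval -0.21 to 0.51) for Parp9, 0.13 (SE 0.17, 95% interval -0.23 to 0.50) for Dtx3l and 0.14 (SE 0.18, 95% interval -0.26 to 0.54) for Parp14. Parp12 had 0, 0, 5.88 and 3.59 CPM in the CD11c+ libraries, against 13.9, 4.34, 5.83 and 4.58 CPM in the CD11c- libraries. It was at 0 in the 2 CD11c+ libraries with the fewest genes, where 0 reads allow up to 0.586 and 0.523 CPM, and highest in CD11c- replicate 1; the log2 fold change was -1.58 (SE 1.11, 95% interval -4.00 to 0.83). Of the 4 genes, 3 had positive log2 fold changes, and none was at an unadjusted p under 0.05.

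The other 10 restriction factors divided 6 to 4 between positive and negative log2 fold changes (median 0.030). Isg20, given above, was the one at an unadjusted p under 0.05. Samhd1, which breaks down deoxynucleotides, had 372, 269.6, 287 and 293 CPM in the CD11c+ libraries, against 293, 276, 311 and 312 CPM in the CD11c- libraries. Trim30a, a mouse TRIM protein that restrains inflammatory signalling, had 229, 164, 179 and 142 CPM in the CD11c+ libraries, against 139, 154, 181 and 141 CPM in the CD11c- libraries. Bst2, or tetherin, holds budding virus at the surface and had 112, 105, 135 and 140.1 CPM in the CD11c+ libraries, against 126, 125, 125 and 169 CPM in the CD11c- libraries. In each of these abundant genes the subsets overlapped, with log2 fold changes of 0.037 (SE 0.12, 95% interval -0.23 to 0.30) for Samhd1, 0.21 (SE 0.16, 95% interval -0.14 to 0.56) for Trim30a and -0.15 (SE 0.16, 95% interval -0.49 to 0.19) for Bst2. Bst2 is also a plasmacytoid dendritic cell marker. The list of 8 such markers without Bst2 summed to 11.9 to 34.9 CPM in CD11c+ and 37.8 to 41.7 CPM in CD11c- libraries. Pacsin1 was the largest part of that sum, at 7.16 to 29.9 CPM in CD11c+ and 31.8 to 35.3 CPM in CD11c- libraries. The other markers had means of at most 3.05 CPM, higher in CD11c+ for Siglech and Ly6d and in CD11c- for Ccr9, Tcf4, Klk1 and Cox6a2. Siglech, the defining marker, had at most 1.09 CPM.

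Scarcer factors had wider intervals. Ifitm3, which keeps virus from entering through endosomes, had 6.06, 14.3, 34.2 and 24.0 CPM in the CD11c+ libraries, against 0.743, 4.90, 13.9 and 16.2 CPM in the CD11c- libraries. It was highest in CD11c+ replicates 3 and 4 and overlapped between the subsets, with means of 19.6 ± 12.2 CPM in CD11c+ and 8.94 ± 7.33 CPM in CD11c- libraries (SD, n = 4 each) and a log2 fold change of 1.14 (SE 0.71, 95% interval -0.41 to 2.68). CD11c+ replicate 3 also had the highest Lyz2 (265 CPM), S100a8 (153 CPM) and summed neutrophil markers of all libraries, and myeloid cells express Ifitm3 strongly. Other libraries did not follow that order. CD11c+ replicate 2, with the lowest neutrophil sum (2.27 CPM), had 14.3 CPM of Ifitm3, and CD11c- replicate 3, with a sum of 116 CPM, had 13.9 CPM. The part of myeloid RNA in the Ifitm3 values was not tested. Rsad2, or viperin, had 27.6, 6.63, 9.09 and 6.39 CPM in the CD11c+ libraries, against 7.06, 5.74, 14.3 and 12.2 CPM in the CD11c- libraries. CD11c+ replicate 1 alone was high, and the log2 fold change was 0.34 (SE 0.54, 95% interval -0.84 to 1.51). Slfn5, a Schlafen protein, had 7.04, 2.97, 7.13 and 7.01 CPM in the CD11c+ libraries, against 3.53, 2.52, 2.07 and 6.70 CPM in the CD11c- libraries, with a log2 fold change of 0.70 (SE 0.62, 95% interval -0.64 to 2.05). Cmpk2, Samd9l and Slfn8 had log2 fold changes of -0.037 (SE 0.29), 0.024 (SE 0.21) and -0.25 (SE 0.21).

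Among the remaining 7 genes, Ifi35, an interferon-induced leucine zipper protein, had 169, 168, 158 and 166 CPM in the CD11c+ libraries, against 197, 170.2, 184 and 205 CPM in the CD11c- libraries. Every CD11c- library was above every CD11c+ library, though CD11c- replicate 2 lay just above them. The log2 fold change was small, -0.19 (SE 0.12, 95% interval -0.45 to 0.060), with an unadjusted p of 0.123. Sp100, a nuclear body protein, had 769, 519, 722 and 522 CPM in the CD11c+ libraries, against 745, 572, 675 and 546 CPM in the CD11c- libraries. Ifi47 had 440.3, 370.2, 433 and 369.6 CPM in the CD11c+ libraries, against 337, 401, 419 and 384 CPM in the CD11c- libraries. The log2 fold changes of Sp100, -0.0041 (SE 0.15, 95% interval -0.33 to 0.32), and Ifi47, 0.065 (SE 0.11, 95% interval -0.18 to 0.31), lay near 0 with the subsets overlapping. Xaf1, an antagonist of an apoptosis inhibitor, had -0.23 (SE 0.17), Rtp4, a chaperone of membrane receptors, 0.13 (SE 0.18), and Cd274, which encodes the checkpoint ligand PD-L1, -0.080 (SE 0.36), all as log2 fold changes. Ifi44 had at most 1.78 CPM in any library and was not tested.

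The ligands, receptors and transducers of the pathway, and further induced genes, were read from a wider list of 96 genes. In the files 86 were found and 69 were tested. None passed edgeR's quasi-likelihood test over all genes, and 33 had positive and 36 negative log2 fold changes. At an unadjusted p under 0.05 there were 5, or 7.25%, of which 1 was higher and 4 lower, beside 4.7% of all tested genes (2.43% higher, 2.26% lower). Ifng, the interferon that these cells can make, had 86.0, 145, 85.2 and 86.2 CPM in the CD11c+ libraries, against 102, 119, 50.8 and 48.3 CPM in the CD11c- libraries, a log2 fold change of 0.33 (SE 0.30, 95% interval -0.32 to 0.98). CD11c+ replicate 2 was the highest and CD11c- replicates 3 and 4 the lowest, with overlap. The type I interferon genes Ifnb1, Ifna2 and Ifna4, and Ifnk and Ifne, had 0 reads in all 8 libraries, which allows up to 0.586 CPM in the shallowest. That bound covers counting error only, and reads placed at more than 1 site were not counted.

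Among receptors, the subunit gene Ifnar1 had 146, 126, 112 and 131 CPM in the CD11c+ libraries, against 153, 173, 181 and 155 CPM in the CD11c- libraries. Every CD11c+ library was below every CD11c- library, with a log2 fold change of -0.36 (SE 0.13, 95% interval -0.65 to -0.077), an unadjusted p of 0.0169 and an adjusted p of 0.990. Its partner Ifnar2 had a log2 fold change of 0.21 (SE 0.26). Ifngr1, for interferon gamma, averaged 858 ± 64.4 CPM in CD11c+ and 905 ± 94.6 CPM in CD11c- libraries (SD, n = 4 each), a log2 fold change of -0.076 (SE 0.10, 95% interval -0.29 to 0.14). Ifngr2, its signalling partner, had at most 2.29 CPM and was not tested. Il10rb, a chain shared with the interferon lambda receptor, had a log2 fold change of 0.077 (SE 0.15).

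Of 12 transducers, 7 had positive and 5 negative log2 fold changes. Jak1, the kinase of both receptors, had 1050.3, 785, 885 and 718 CPM in the CD11c+ libraries, against 1212, 919.5, 1167 and 875 CPM in the CD11c- libraries, and its log2 fold change was -0.28 (SE 0.14, 95% interval -0.58 to 0.022). Jak1 overlapped between the subsets. Socs3, a feedback inhibitor of cytokine receptors that STAT3 induces, had 32.8, 28.3, 32.8 and 26.5 CPM in the CD11c+ libraries, against 51.4, 39.1, 43.5 and 44.6 CPM in the CD11c- libraries. Its CD11c+ libraries all lay below its CD11c- libraries, with a log2 fold change of -0.57 (SE 0.20, 95% interval -1.01 to -0.13), an unadjusted p of 0.0153 and an adjusted p of 0.990. Socs1, the feedback inhibitor of interferon receptors, had a log2 fold change of 0.24 (SE 0.20), Tyk2 -0.38 (SE 0.24), Jak2 -0.26 (SE 0.38) and Nlrc5, a switch of MHC class I genes, 0.11 (SE 0.17). Stat3, Irf2, Irf3, Irf5 and Irf8 had log2 fold changes of 0.013, 0.0026, -0.062, 0.32 and 0.017.

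Of the 52 further induced genes tested, Ly6a, which encodes the surface antigen Sca-1 and answers to interferon in lymphocytes, had 267, 376, 333 and 521 CPM in the CD11c+ libraries, against 149, 176, 153 and 241 CPM in the CD11c- libraries. All CD11c+ libraries were above all CD11c- libraries. Its log2 fold change was 1.06 (SE 0.21, 95% interval 0.61 to 1.504) and its adjusted p 0.146 by edgeR's quasi-likelihood test, with 0.000125 by DESeq2, 0.0129 by limma voom, and 0.000125 to 0.653 over all alternatives. In edgeR fits the adjusted p was 0.0403 with no filter and 0.00562 with the replicate number as a block, so that Ly6a was called there too. It was the 1 gene of the wider list called by DESeq2, limma voom and these fits. In the other direction, Ifi27l2a had 807, 651, 923 and 762 CPM in the CD11c+ libraries, against 1317, 853, 911 and 1154 CPM in the CD11c- libraries, a log2 fold change of -0.43 (SE 0.15, 95% interval -0.75 to -0.11) and an unadjusted p of 0.0119. Tor3a, of the torsin ATPases, had 34.4, 22.2, 43.5 and 32.0 CPM in the CD11c+ libraries, against 53.8, 39.9, 44.6 and 51.8 CPM in the CD11c- libraries, a log2 fold change of -0.53 (SE 0.24, 95% interval -1.04 to -0.013) and an unadjusted p of 0.0453. These 2 overlapped between the subsets. Cxcl10, a chemokine gene induced by interferon gamma, had 8.41, 14.0, 9.98 and 8.73 CPM in the CD11c+ libraries, against 0, 4.62, 7.15 and 6.70 CPM in the CD11c- libraries. All CD11c+ libraries were above the CD11c- ones, at a log2 fold change of 1.15 (SE 0.80, 95% interval -0.59 to 2.89). It is named for that lack of overlap, which was seen in 4 of the 69 genes (5.80%), beside 3.44% of all tested genes.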

How the data were processed

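The authors deposited 1 file of raw read counts per gene symbol for each of the 8 libraries, with no normalization. Per the labels' protocols, RNA was amplified with a modified SMART-seq2 protocol and made into Nextera XT libraries. bcl2fastq, TopHat2 2.0.8b, HTSeq and the build mm9 are named in the submitters' processing notes. As for the annotation and strand setting, neither is given in the sources used here, so antisense and overlapping genes cannot be told apart. A deposited file lists 22609 genes, and its 5 summary lines were left out of totals and tests. Of uniquely placed reads, 63.1% to 67.1% fell in no annotated gene. No pair of replicates differed by read sampling alone (lowest chi-square per degree of freedom 9.43).

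Counts were tested in R 4.3.3 with edgeR 4.0.16 (filterByExpr, TMM, glmQLFit, glmQLFTest) as CD11c+ minus CD11c-, 4 libraries each, with Benjamini-Hochberg adjustment over 10073 genes and a threshold of 0.05. The SE of a log2 fold change is its size over the root of the F statistic, and 95% intervals use the degrees of freedom of the fit. CPM are TMM-scaled, scores use log2 CPM with a prior count of 2, and levels per kb use union exon lengths of GENCODE M21 (GRCm38), which is not the annotation of the counts. The members and lists were chosen with earlier results of these data known, among them the lists of receptors, transducers and markers. Members given in every library are those at an unadjusted p under 0.05, the 3 of highest mean CPM per role, and the 3 of largest fold change in each direction. A gene of the wider list is not reported here. The reported edgeR fit and its intervals were first tested on simulated counts, and the other steps were not. Alternatives were RLE factors, 2 filters, a replicate block, another edgeR setting (legacy=FALSE), DESeq2 1.42.0, limma 3.58.1 voom with quality weights, each library left out, and, chosen after seeing the data, leaving out the 3 libraries that detected the fewest genes.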

Additional observations from a re-analysis of the deposited data

Results flagged for a closer look

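In groups of 4 libraries, 13 of 110 had a library whose gap to the nearest other exceeded, as a share of the group's range, Dixon's 95% critical value, which chance alone passes in about 5% of groups. In CD11c+ cells the high libraries were Oas2 in replicate 3 (7.13 CPM, the others 0 to 1.09), Dtx3l in replicate 2 (229 CPM, the others 156 to 161), Cmpk2 in replicate 2 (48.9 CPM, the others 23.9 to 25.1) and Rsad2 in replicate 1 (27.6 CPM, the others 6.39 to 9.09). Slfn5 was low in CD11c+ replicate 2, at 2.97 CPM, with the others at 7.01 to 7.13.

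In CD11c- cells, replicate 1 was high for Irf9 (297 CPM, the others 142 to 159), Irgm1 (170.3 CPM, the others 104 to 111), Igtp (162 CPM, the others 133 to 137) and Parp12 (13.9 CPM, the others 4.34 to 5.83). Its Gbp and Irgm score was high as well, at 6.72 with the others at 6.53 to 6.56. Replicate 4 was high for Zbp1 (227 CPM, the others 179 to 183) and Bst2 (169 CPM, the others 125 to 126). The score over the 51 members was low in CD11c- replicate 2, at 5.74 with the others at 5.91 to 5.94.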

How the results depend on the processing

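The count of interferon response genes past the threshold was 0 in the 16 alternatives run. The genes called among all tested numbered 5 in the reported fit, 12 with no filter, 8 with at least 5 CPM in 4 libraries, 11 with legacy=FALSE, 32 with DESeq2, 19 with limma voom, 11 without the 3 libraries with the fewest genes, and 1 to 5 with each library left out. Members at an unadjusted p under 0.05 numbered 2 in the reported fit, 4 with no filter, 5 with limma voom, 4 without the 3 libraries, and 0 to 4 with each library left out. The members tested were 51, or 53 with no filter. Of all tested genes, 4.7%, 5.03%, 5.32%, 6.42% and 3.53% to 5.74% were at that level, in the same order. The difference between the family scores was -0.45, -0.26 with the filter of 5 CPM, and -0.51 to -0.38 with each library left out. The median log2 fold change of the Gbp and Irgm genes was 0.042 to 0.23 with each library left out, that of the Ifit, Oas and Mx genes -0.22 to -0.057, and that of all members -0.0998 to -0.044.

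Of 1006 pairs of a gene and an alternative, over 63 genes, 941 kept direction and side of the threshold, 4 (all Ly6a) passed it, and 61 changed sign, with log2 fold changes as follows. With limma voom they were Ifit1 -0.023, Eif2ak2 0.025, Rsad2 -0.20, Samhd1 -0.0036, Samd9l -0.066, Ifi47 -0.029, Rtp4 -0.019 and Cd274 0.12. Without the 3 libraries they were Ifit1 -0.23, Ifit3 0.017, Oas2 0.30, Oasl2 0.24, Mx1 -0.34, Irgm2 0.019, Eif2ak2 0.45, Herc6 0.084, Parp9 -0.13, Rsad2 -0.48, Samhd1 -0.055, Samd9l -0.23, Ifi47 -0.011, Rtp4 -0.073, Sp100 0.047, Cd274 0.39 and Ifnar2 -0.11. With each library left out the ranges that crossed 0 were Ifit1 -0.054 to 0.43, Ifit3 -0.22 to 0.17, Oas3 -0.19 to 0.073, Irgm1 -0.069 to 0.20, Stat2 -0.40 to 0.080, Zbp1 -0.082 to 0.037, Eif2ak2 -0.49 to 0.063, Adar -0.25 to 0.027, Dtx3l -0.025 to 0.22, Rsad2 -0.41 to 0.57, Cmpk2 -0.37 to 0.062, Samhd1 -0.074 to 0.083, Samd9l -0.12 to 0.14, Ifi47 -0.0030 to 0.10, Rtp4 -0.067 to 0.22, Sp100 -0.11 to 0.073 and Cd274 -0.28 to 0.16. The cause was not tested.

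Libraries of the subsets share the numbers 1 to 4, with correlations of their deviations of 0.096, 0.17, 0.12 and 0.19. Each library correlated best with its own number, and unlike numbers had correlations of at most 0.028. That is a hint of pairs from the data and not from the design, since the labels do not say what equal numbers share. The reported fit did not pair the libraries, and its p-values leave out any such pairing. With the number as a replicate block, 13 genes were called among all tested (11 higher, 2 lower). Ly6a was the 1 gene called in the wider list, and 0 members were called. At an unadjusted p under 0.05 were 5 of 51 members (2 higher, 3 lower), beside 6.07% of all tested genes. With 4 libraries a subset, the scarce members have intervals wide enough to hide a change of 2-fold.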

Other observations

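Genes of peptide loading on MHC class I, all in the wider list of induced genes, were abundant in both subsets. They were picked out after their values were seen, and are given as values. B2m, the light chain of class I, had 6981, 6489.5, 7909.8 and 6841 CPM in the CD11c+ libraries, against 6961, 7376, 7426 and 6309 CPM in the CD11c- libraries, with a log2 fold change of 0.0076 (SE 0.076). Psmb8, a subunit of the immunoproteasome, had 1466, 1512, 1686 and 1685 CPM in the CD11c+ libraries, against 1435, 1713, 1597 and 2057 CPM in the CD11c- libraries, with a log2 fold change of -0.10 (SE 0.11). Tap1, of the peptide transporter, had 762, 737, 663 and 717 CPM in the CD11c+ libraries, against 868, 798, 721 and 803 CPM in the CD11c- libraries, with a log2 fold change of -0.15 (SE 0.093). The subsets overlapped for each of these genes. The T cell attractant genes Cxcl9 and Cxcl11 had at most 3.53 and 0 CPM in any library.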
